A study of Mus musculus with 70 samples.

Results

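Somatostatin is a peptide hormone that restrains secretion from the pituitary gland, above all of growth hormone and thyrotropin. Its receptors, encoded by Sstr1 to Sstr5, couple to inhibitory G proteins that lower cyclic AMP, open inwardly rectifying potassium channels and engage tyrosine phosphatases. SSTR2 and SSTR5 are the members best known in the pituitary, where drugs such as octreotide act on them. The 5 genes were taken by symbol from an RNA-seq table of 22835 symbols, with the transcript of highest mean level for each gene. These were NM_009216 for Sstr1, NM_001042606 for Sstr2, NM_009218 for Sstr3, NM_009219 for Sstr4 and NM_011425 for Sstr5. Levels are in CPM, a gene's reads divided by all reads of its library and multiplied by the same constant in every library. Sstr1, Sstr3 and Sstr5, 3 of the 5, lay above 1 CPM in all 18 libraries, Sstr2 in 16 of 18 and Sstr4 in 10 of 18. All 5 passed a second limit of more than 1 CPM in at least 4 libraries.

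The RNA came from pituitaries of male C57BL/6J mice aged 2 to 4 months, pooled by 3 for each library. Every mouse drank 0.05% methimazole (MMI) with 1% potassium perchlorate for 4 or 5 weeks, agents that block the synthesis of thyroid hormone. The hypothyroid groups received nothing else, and the hyperthyroid groups also received the active hormone T3 at 0.5 µg/ml in the final week. There were 4 hypothyroid wild type, 4 hyperthyroid wild type, 5 hypothyroid Thrb-KO and 5 hyperthyroid Thrb-KO libraries, and no untreated RNA library. Thrb encodes the thyroid hormone receptor TRβ, and the design asks which genes respond to T3 and how far the response needs that receptor. Depth in megareads was 35.0, 34.3, 43.6 and 27.6 in hypothyroid wild type and 44.5, 36.4, 24.7 and 38.2 in hyperthyroid wild type, in the order of the replicate numbers. It was 29.3, 30.6, 55.3, 30.4 and 31.3 in hypothyroid Thrb-KO and 36.8, 35.9, 42.0, 31.7 and 21.5 in hyperthyroid Thrb-KO. At these depths 3 reads, below which a gene was taken as not detected, equal 0.0543 to 0.140 CPM, a floor that covers counting error only.

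Peaks of TRβ binding came from untreated mice with the alleles ThrbHAB/HAB and Rosa26BirA/BirA, in which a bacterial ligase biotinylates a tag on TRβ so that streptavidin captures it (ChAP-seq). Mice with Rosa26BirA/BirA alone were the control by the sample titles and the methods, while the genotype field of these control samples names the tagged line. The control reads and ratios below rest on the titles. These lines carry 129/SvJ and FVB/N ancestry by the study's methods, while the labels give C57BL/6J, and a library pooled 12 pituitaries or the cerebral cortex of 2 mice. A further list holds ATAC-seq peaks that differed between hypothyroid and hyperthyroid pituitaries, without the direction. Its nuclei were purified by a Sun1-GFP label that Cre switched on from the Thrb b2 promoter, so that it covers the pituitary cells in which that promoter had been active.

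Thrb itself was read first, as a check of the genotype labels. In hypothyroid wild type its level was 239, 242, 249 and 297 CPM, and in hyperthyroid wild type it was 124, 117, 72.4 and 103 CPM. The libraries labelled Thrb-KO held 272, 295, 278, 271 and 239 CPM in the hypothyroid state and 288, 301, 239, 245 and 228 CPM in the hyperthyroid state. The libraries labelled Thrb-KO thus had as much Thrb RNA as hypothyroid wild type, and the table cannot show whether this RNA encodes a receptor. In wild type Thrb fell with T3 by 1.32 on the log2 scale (SE 0.14, n = 4 and 4, limma adjusted p = 1.27e-06), 4 of 4 libraries lying below all hypothyroid ones. In Thrb-KO the difference was -0.06 (SE 0.12, n = 5 and 5), and the 2 T3 responses differed by 1.26 (limma adjusted p = 0.000322).

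The tissue label fits its hormone genes, since Gh, Prl, Tshb, Cga, Fshb and Pomc were present in every library. Of 39 cell type markers 38 were listed in the table, none at 0 in any library, and the lowest value was 0.640 CPM for Avp, a hypothalamic hormone gene. The marker Oacyl was not analysed here. Replicates 1 and 2 of each group stood apart from replicates 3 to 5. Lars2, a mitochondrial leucyl-tRNA synthetase gene, lay at 2571 to 3420 CPM in the first set and at 53.2 to 95.1 CPM in the second. The labels name a TruSeq and a ThruPLEX library kit without assigning them to libraries. Hyperthyroid wild type replicate 3 also stood apart, with 53184 CPM of Prl against 14523 to 26905 CPM and 159094 CPM of Gh against 87356 to 112135 CPM in the other replicates of its group. Differences are given below for both sets together, and for part of the receptor differences also within each set.

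Sstr3 and Sstr1 gave most of the receptor RNA, Sstr5 followed, and Sstr2 and Sstr4 were scarce. Per kilobase of coding sequence, hypothyroid wild type pituitaries held 28.1 ± 3.18 CPM of Sstr3 (SD, n = 4), 22.8 ± 6.09 of Sstr1, 6.93 ± 2.18 of Sstr5, 1.63 ± 0.265 of Sstr2 and 0.993 ± 0.453 of Sstr4. Sstr3 and Sstr1 did not differ beyond their spread there, and on the scale of exon length their order turned, with 9.19 ± 1.04 CPM per kilobase for Sstr3 and 13.1 ± 3.49 for Sstr1. Their balance also differed between the library sets. Not corrected for length, replicates 1 and 2 held 40.3 and 38.9 CPM of Sstr3 against 23.1 and 18.5 CPM of Sstr1. Replicates 3 and 4 held 33.0 and 32.2 CPM of Sstr3 against 33.8 and 31.4 CPM of Sstr1. In the other groups Sstr1 had the higher mean over both library sets. It was 27.2 ± 5.90 CPM per coding kilobase in hyperthyroid wild type, 29.5 ± 9.54 in hypothyroid Thrb-KO and 31.5 ± 7.76 in hyperthyroid Thrb-KO. Sstr3 stood there at 18.6 ± 2.36, 21.6 ± 1.62 and 17.7 ± 1.38 CPM per coding kilobase. In hypothyroid Thrb-KO these 2 genes were within their spread of each other. There replicates 1 and 2 held 24.0 and 23.7 CPM of Sstr1 against 25.2 and 26.5 CPM of Sstr3, not corrected for length. Hyperthyroid wild type replicate 1 held 23.2 CPM of Sstr1 against 27.5 CPM of Sstr3. Sstr2 and Sstr4 were within their spread of each other in both hypothyroid groups, and in hyperthyroid wild type Sstr2 stood at 4.94 ± 1.73 against 0.860 ± 0.366 for Sstr4.

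The mean of the summed receptor RNA was nearly level across the groups while its make-up was not. The sum was 73.2 ± 3.94 CPM in hypothyroid wild type (SD, n = 4), 73.0 ± 2.12 in hyperthyroid wild type (n = 4), 70.6 ± 12.3 in hypothyroid Thrb-KO (n = 5) and 69.8 ± 10.7 in hyperthyroid Thrb-KO (n = 5). The library sets differed in this. In replicates 1 and 2 all Thrb-KO sums, at 55.3 to 63.5 CPM, lay below all wild type ones, at 69.1 to 77.3 CPM. In replicates 3 to 5 the sums were 69.9 to 84.9 CPM in Thrb-KO and 70.6 to 75.7 CPM in wild type. Sstr3 supplied 49.4 ± 5.87% of the sum in hypothyroid wild type and 32.7 ± 3.24% in hyperthyroid wild type. Sstr2 supplied 2.3 ± 0.306% and 7.00 ± 2.31% of the sum in these groups, and Sstr5 supplied 10.3 ± 3.14% and 15.0 ± 5.34%. The share of Sstr1 was 36.5 ± 9.46% in hypothyroid and 43.9 ± 10.5% in hyperthyroid wild type, and 48.1 ± 7.59% and 52.4 ± 5.43% in the corresponding Thrb-KO groups. Over both library sets its mean was the highest of the 5 genes in all groups but hypothyroid wild type. In hyperthyroid wild type replicate 1 and hypothyroid Thrb-KO replicates 1 and 2 the share of Sstr3 was larger than that of Sstr1. In Thrb-KO the share of Sstr3 was 40.0 ± 5.22% in the hypothyroid and 33.1 ± 4.04% in the hyperthyroid state, and that of Sstr2 was 1.93 ± 0.698% and 3.45 ± 1.44%. Shares of CPM are not corrected for length and describe the make-up of the reads.

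**Figure D1:**
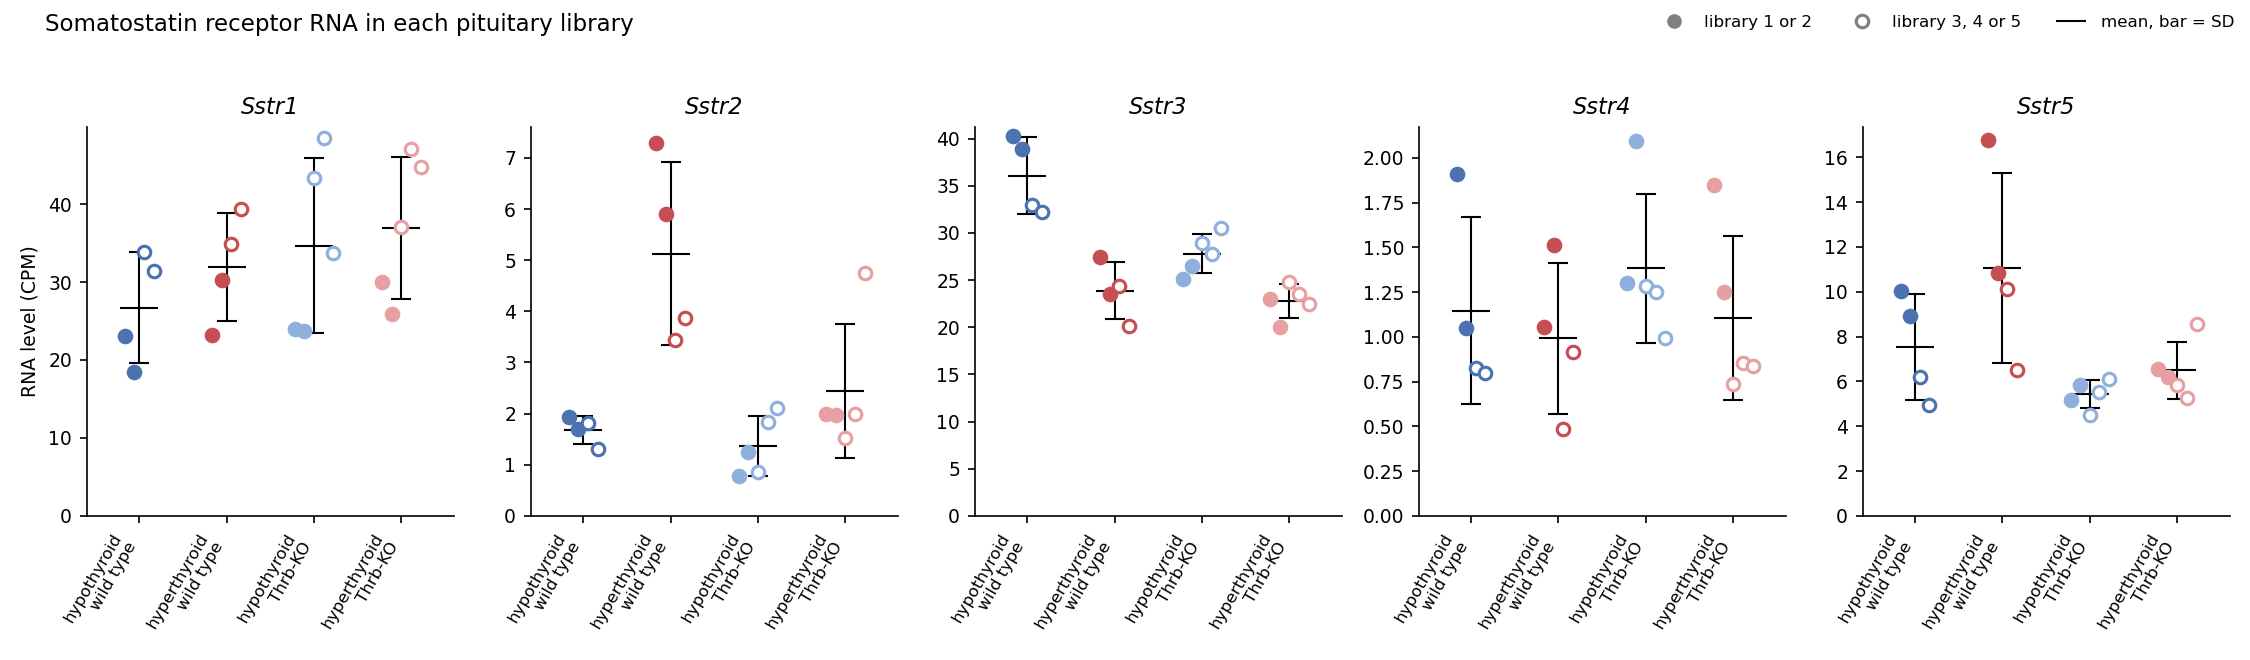
CPM of each receptor gene (vertical axis, from 0) in each of the 18 pituitary libraries (points), by group, with the mean and SD of the group as bars and the set of replicates 1 and 2 filled. The 4 hyperthyroid wild type libraries lay above the 4 hypothyroid ones for Sstr2, at 3.45 to 7.29 against 1.31 to 1.94 CPM, and below them for Sstr3, at 20.1 to 27.5 against 32.2 to 40.3 CPM.

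In wild type pituitaries T3 was followed by opposite differences in 2 receptors: Sstr2 RNA rose and Sstr3 RNA fell, in these directions also under TMM scaling, in edgeR and in DESeq2. Mean Sstr2 was 3.04-fold higher in the hyperthyroid than in the hypothyroid group, from 1.69 ± 0.275 to 5.13 ± 1.80 CPM (SD, n = 4 and 4). Mean Sstr3 was 0.662 times its hypothyroid level, from 36.1 ± 4.09 to 23.9 ± 3.03 CPM. Thus 2 of the 5 receptors were called at a limma adjusted p under 0.05, beside 19.3% of the 13145 genes above 1 CPM in all libraries and 20.3% of the 14472 genes above it in at least 4. Since the libraries are bulk tissue, fewer cells of a type and less RNA per cell cannot be told apart.

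Sstr2, whose receptor mediates much of somatostatin's effect on growth hormone release, measured 1.94, 1.69, 1.81 and 1.31 CPM in hypothyroid wild type and 7.29, 5.91, 3.45 and 3.87 CPM in hyperthyroid wild type. All 4 hyperthyroid libraries lay above all hypothyroid ones, and replicates 1 and 2 were the highest of them. The log2 difference was 1.15 (SE 0.24, 95% interval 0.64 to 1.66, limma adjusted p = 0.00177), and it was 1.2 with TMM scaling, 1.65 in edgeR and 1.66 in DESeq2. Within replicates 1 and 2 it was 1.43 (limma adjusted p = 2.14e-06), and within replicates 3 and 4 it was 0.87 and not called (limma adjusted p = 0.0980), and these 2 adjusted p are the lowest and highest over the alternatives. With any 1 of the 18 libraries left out it was 0.99 to 1.29 and called each time. Sstr2 rests on 23 to 324 reads a library.

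Sstr3, a receptor known from primary cilia, measured 40.3, 38.9, 33.0 and 32.2 CPM in hypothyroid wild type and 27.5, 23.5, 24.4 and 20.1 CPM in hyperthyroid wild type. All 4 hyperthyroid libraries lay below all hypothyroid ones, and within the hypothyroid group replicates 1 and 2 were higher than replicates 3 and 4. Its log2 difference was -0.58 (SE 0.10, 95% interval -0.79 to -0.36, limma adjusted p = 0.000403). It was -0.62 within replicates 1 and 2 and -0.54 within replicates 3 and 4 (limma adjusted p = 0.00822, the highest over the settings tried, whose lowest was 2.16e-05). TMM scaling gave -0.51, edgeR -0.52 and DESeq2 -0.52. On the log2(CPM + 1) scale the change was just under 1.5-fold, so Sstr3 was not called where a 1.5-fold change was also asked.

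Sstr5 did not pass the test in wild type, although most hyperthyroid libraries were high. It measured 10.0, 8.92, 6.20 and 4.93 CPM in hypothyroid wild type and 16.8, 10.8, 10.1 and 6.52 CPM in hyperthyroid wild type. In the hyperthyroid group 3 of 4 libraries lay above the highest hypothyroid one, replicate 4 lay among them, and replicates 1 and 2 were higher than replicates 3 and 4 in the hypothyroid group. Between the groups the log2 difference was 0.48 (SE 0.22, 95% interval 0.02 to 0.94, limma adjusted p = 0.155). With the replicate numbers as blocks it was called at the same size (limma adjusted p = 0.0308), as it was within replicates 1 and 2 (0.47, limma adjusted p = 0.0304) and without hyperthyroid wild type replicate 4 (0.68, limma adjusted p = 0.0265), but not within replicates 3 and 4 (0.49, limma adjusted p = 0.183). Without hyperthyroid wild type replicate 1 it was 0.27 (limma adjusted p = 0.441) and without hypothyroid wild type replicate 4 it was 0.32 (limma adjusted p = 0.416). Over all alternatives the limma adjusted p ran from 0.0265 to 0.441.

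Sstr1 and Sstr4 overlapped between the wild type groups. Sstr1 measured 23.1, 18.5, 33.8 and 31.4 CPM in hypothyroid and 23.2, 30.2, 34.9 and 39.4 CPM in hyperthyroid wild type, and in all 4 groups the means of replicates 1 and 2 were the lower ones. Its log2 difference was 0.26 (SE 0.25, limma adjusted p = 0.579), and only within replicates 1 and 2 was it called (0.34, limma adjusted p = 0.0498, range over all alternatives 0.0498 to 0.856), with 0.18 within replicates 3 and 4 (limma adjusted p = 0.509). Sstr4 measured 1.91, 1.05, 0.826 and 0.798 CPM in hypothyroid and 1.06, 1.51, 0.487 and 0.916 CPM in hyperthyroid wild type, a log2 difference of -0.10 (SE 0.19, limma adjusted p = 0.809). It turned to 0.05 without hypothyroid wild type replicate 1 and to 0.03 without hyperthyroid wild type replicate 3. Sstr4 rests on 12 to 71 reads a library.

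Several cell type markers moved with T3 in wild type, of the 36 tested 4 up and 6 down beside 19.3% called among all genes, with a median log2 difference of 0.01 against -0.04 over all genes. Somatotroph markers (Gh, Ghrhr and Pou1f1, mostly Gh) summed to 48532, 51249.6, 66488 and 57975 CPM in hypothyroid and to 104559, 87608, 159299 and 112396 CPM in hyperthyroid wild type. The higher somatotroph sum rests on Gh, since Ghrhr and Pou1f1 were not called. Pou1f1 overlapped, at 88.3 to 151 CPM in hypothyroid and 96.1 to 135 CPM in hyperthyroid wild type. Lactotroph markers (Prl and Drd2, mostly Prl) summed to 6272, 5951, 8732 and 9436 CPM in hypothyroid and to 15749, 14667, 53271 and 27033 CPM in hyperthyroid wild type, and Drd2 was not called. Thyrotroph markers (Tshb, Cga and Trhr, mostly Cga) summed to 9675, 8941, 17535 and 14841 CPM and then to 1350.4, 1197, 2077 and 1617 CPM. All 4 hyperthyroid libraries lay above the hypothyroid ones for the first 2 sums and below them for the last. Separation without overlap was also seen for 3 further sums. Blood markers (Hbb-b1, Hba-a1 and Alas2, mostly Hba-a1) summed to 51.8, 55.5, 42.6 and 28.5 CPM in hypothyroid and to 67.8, 77.7, 65.7 and 74.9 CPM in hyperthyroid wild type, with none of these 3 genes called. Pituicyte and hypothalamic markers (Nkx2-1, Rax, Avp and Oxt, with the highest mean for Rax) summed to 10.4, 10.8, 9.83 and 8.59 CPM and then to 13.4, 12.1, 31.5 and 15.3 CPM. Melanotroph markers (Pax7 and Pcsk2, mostly Pcsk2) summed to 379, 380.2, 463 and 534 CPM and then to 357, 318, 307 and 276 CPM, below the hypothyroid libraries, which rests on Pcsk2, since Pax7 gave 0.10 and was not called. Among single markers Gh rose by 1.03 (limma adjusted p = 0.00170) and Prl by 1.70 (limma adjusted p = 0.000491), while Tshb fell by 4.95, Cga fell by 2.55 and Trhr fell by 4.08. Pcsk2 of melanotrophs fell by 0.53, Csf1r of macrophages fell by 0.43 and Col1a1 of stroma fell by 0.73, while Sox2 of stem cells rose by 0.34 and Nkx2-1 of pituicytes by 0.46. No other tested marker of these lists was called. Immune sums overlapped, at 50.6 to 55.2 CPM in hypothyroid and 33.0 to 56.0 CPM in hyperthyroid wild type. Stromal sums also overlapped, at 267 to 327 and 202 to 306 CPM, as did stem and folliculostellate sums, at 59.3 to 66.3 and 65.1 to 75.7 CPM. The part of any of these cells in the Sstr2 and Sstr3 differences was not tested.

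In Thrb-KO pituitaries none of the 5 receptors was called in response to T3, beside 1.79% of the 13145 genes and 2.27% of the 14472 genes. At an unadjusted limma p under 0.05 the count was 2 of 5, Sstr3 and Sstr2, beside 1077 of the 13145 genes and 1305 of the 14472 genes. Both edgeR and DESeq2 called 0 of 5, beside 303 and 481 of the 13145 genes. Sstr3 measured 25.2, 26.5, 28.9, 27.8 and 30.5 CPM in hypothyroid and 23.0, 20.0, 24.8, 23.6 and 22.5 CPM in hyperthyroid Thrb-KO. All 5 hyperthyroid libraries lay below all hypothyroid ones. Its log2 difference was -0.28 (SE 0.09, 95% interval -0.47 to -0.08, limma adjusted p = 0.204), with -0.26 within replicates 1 and 2 and -0.29 within replicates 3 to 5.

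Sstr2 in Thrb-KO measured 0.786, 1.24, 0.868, 1.84 and 2.11 CPM in the hypothyroid and 1.98, 1.98, 1.53, 1.99 and 4.75 CPM in the hyperthyroid state. Replicate 5 of the hyperthyroid group was far above the others, which overlapped with the hypothyroid libraries. Each hyperthyroid library lay above the hypothyroid library of the same replicate number. The log2 difference was 0.51 (SE 0.22, 95% interval 0.05 to 0.96, limma adjusted p = 0.428). With the replicate numbers as blocks the difference was of the same size and not called (limma adjusted p = 0.0898). It was called within replicates 1 and 2 (0.57, limma adjusted p = 0.0282), and it was 0.46 within replicates 3 to 5 (limma adjusted p = 0.586) and 0.31 without hyperthyroid Thrb-KO replicate 5 (limma adjusted p = 0.95). Over all alternatives the limma adjusted p ran from 0.0282 to 0.95.

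Sstr5, Sstr1 and Sstr4 overlapped between the Thrb-KO groups. Sstr5 measured 5.16, 5.83, 4.50, 5.52 and 6.11 CPM in hypothyroid and 6.57, 6.18, 5.84, 5.27 and 8.58 CPM in hyperthyroid Thrb-KO, 3 of 5 above the highest hypothyroid library, with a log2 difference of 0.21 (SE 0.20). Sstr1 measured 24.0, 23.7, 43.4, 48.4 and 33.7 CPM in hypothyroid and 30.0, 25.9, 37.0, 47.0 and 44.7 CPM in hyperthyroid Thrb-KO, a log2 difference of 0.11 (SE 0.22). Sstr4 measured 1.30, 2.09, 1.28, 1.25 and 0.991 CPM in hypothyroid and 1.85, 1.25, 0.739, 0.851 and 0.839 CPM in hyperthyroid Thrb-KO, a log2 difference of -0.19 (SE 0.17). The Thrb-KO libraries too differed in hormone genes with T3, Prl rising by 1.63 (limma adjusted p = 0.00173), Tshb falling by 4.83, Cga falling by 2.11 and Trhr falling by 2.04, while Gh was not called (0.50, SE 0.19, limma adjusted p = 0.337). Gh measured 57865, 57762.5, 73698, 70319.6 and 72480.2 CPM in hypothyroid and 94943, 89350.9, 82874, 88335 and 114941 CPM in hyperthyroid Thrb-KO, all 5 hyperthyroid libraries lying above the hypothyroid ones. Prl, Tshb, Cga and Trhr were the 4 markers called of the 36, beside 1.79% of all genes, with a median of 0.04 over the 36 against -0.01 over all genes.

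The T3 responses of the 2 genotypes were then compared directly, as the response in Thrb-KO minus that in wild type. None of the 5 receptors was called, beside 5.46% of the 13145 genes and 6.38% of the 14472 genes. At an unadjusted limma p under 0.05 the count was 1 of 5, Sstr3, beside 1968 of the 13145 genes and 2287 of the 14472 genes. Both edgeR and DESeq2 called 0 of 5, beside 831 and 1137 of the 13145 genes. A smaller T3 response in Thrb-KO is thus not shown for any receptor, although Sstr2 and Sstr3 passed the test in wild type alone. The difference of the responses was -0.64 for Sstr2 (SE 0.33, 95% interval -1.32 to 0.04, limma adjusted p = 0.370) and 0.30 for Sstr3 (SE 0.14, 95% interval 0.01 to 0.59, limma adjusted p = 0.302). For Sstr5 it was -0.27 (SE 0.29, 95% interval -0.88 to 0.35), for Sstr1 -0.15 (SE 0.33) and for Sstr4 -0.08 (SE 0.26). For Sstr2 the difference was called within replicates 1 and 2 (-0.85, limma adjusted p = 0.0122) and without both hyperthyroid wild type replicate 3 and hyperthyroid Thrb-KO replicate 5 (-0.98, limma adjusted p = 0.0269), and it was -0.41 within replicates 3 to 5 (limma adjusted p = 0.704, the highest over the alternatives). For Sstr3 it was 0.36 within replicates 1 and 2 and 0.25 within replicates 3 to 5. Among the 36 markers the responses differed for Trhr alone (2.04, limma adjusted p = 4.99e-07), 1 of 36 beside 5.46% of all genes, with a median of -0.07 against 0.04 over all genes.

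**Figure D2:**
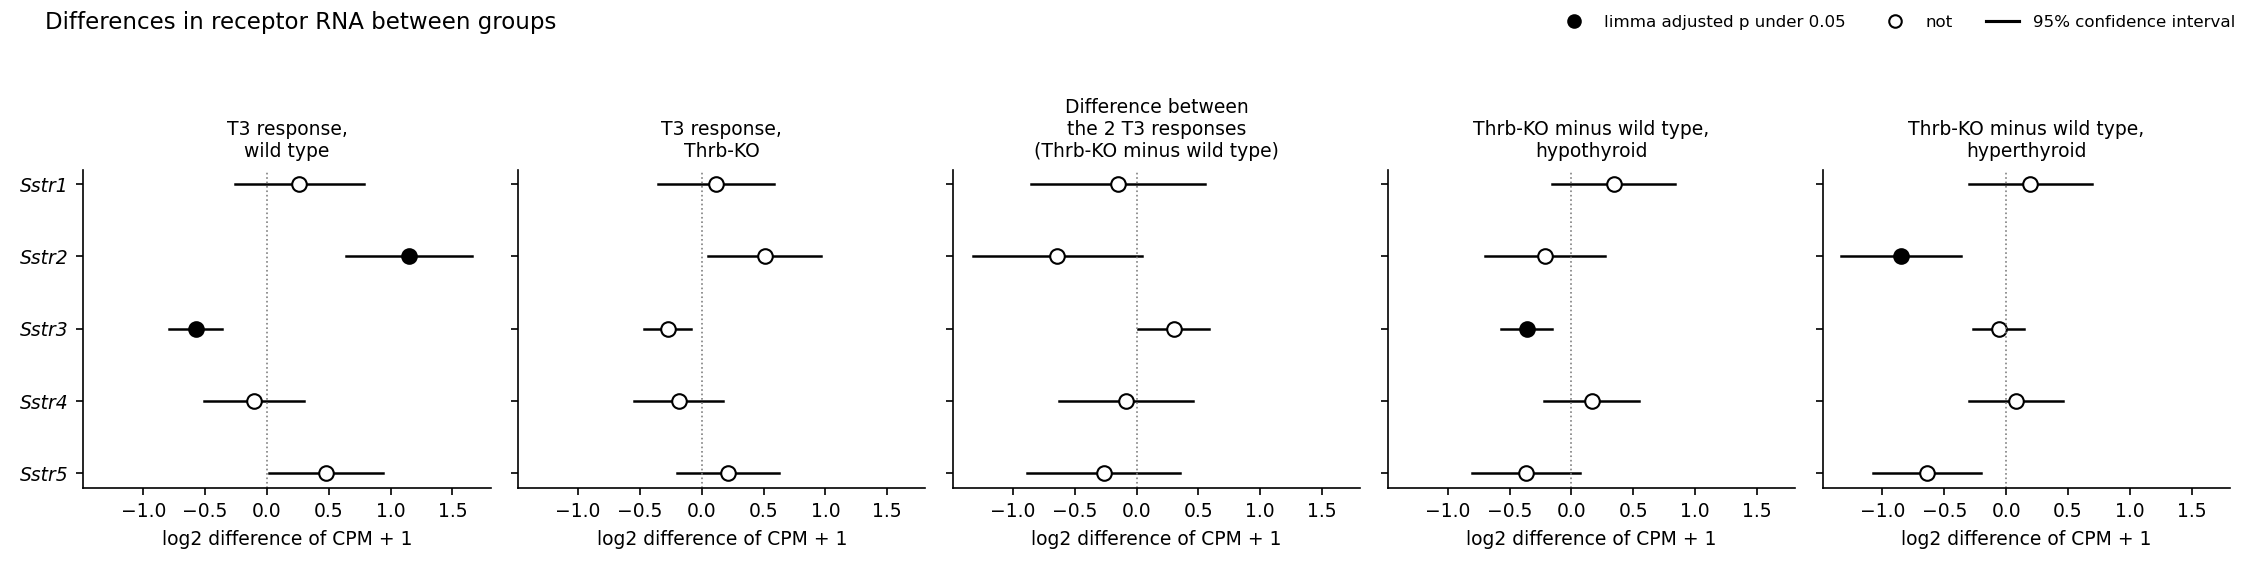
Difference of log2(CPM + 1) (horizontal axis) for each receptor gene in 5 comparisons of the 4 groups, with 95% confidence intervals as lines and filled points at a limma adjusted p under 0.05. Sstr2 (1.15) and Sstr3 (-0.58) are filled for the T3 response in wild type, Sstr3 (-0.36) for Thrb-KO minus wild type in the hypothyroid state and Sstr2 (-0.85) in the hyperthyroid state, and none is filled for the T3 response in Thrb-KO or for the difference of the responses.

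Without T3, Sstr3 was the only receptor that differed between the genotypes: it was lower in hypothyroid Thrb-KO than in hypothyroid wild type. Its mean was 27.8 ± 2.08 CPM (SD, n = 5) against 36.1 ± 4.09 CPM (n = 4), a ratio of 0.770. All 5 Thrb-KO libraries, at 25.2 to 30.5 CPM, lay below all 4 wild type libraries, at 32.2 to 40.3 CPM. Thus 1 of 5 receptors was called, beside 6.85% of the 13145 genes and 7.59% of the 14472 genes. Its log2 difference was -0.36 (SE 0.10, 95% interval -0.57 to -0.16, limma adjusted p = 0.0291), with -0.39 under TMM scaling, -0.40 in edgeR and -0.40 in DESeq2. It was -0.60 within replicates 1 and 2 (limma adjusted p = 0.000749) and -0.16, not called, within replicates 3 to 5 (limma adjusted p = 0.378), the ends of the range over the alternatives. The call was lost without hypothyroid wild type replicate 1 (-0.31, limma adjusted p = 0.108) or replicate 2 (limma adjusted p = 0.0867), and without hypothyroid Thrb-KO replicate 1 (0.0748), replicate 2 (0.0661) or replicate 4 (0.0603).

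The other receptors were not called between the hypothyroid groups. Log2 differences were -0.37 for Sstr5 (SE 0.21, limma adjusted p = 0.378), -0.21 for Sstr2 (SE 0.23), 0.34 for Sstr1 (SE 0.24) and 0.16 for Sstr4 (SE 0.18). Within replicates 1 and 2 both Sstr5 (-0.69, limma adjusted p = 0.00844) and Sstr2 (-0.49, limma adjusted p = 0.0378) were called. Within replicates 3 to 5 Sstr5 gave -0.04 (limma adjusted p = 0.920, the highest over its alternatives) and Sstr2 gave -0.00 (limma adjusted p = 1.00, likewise). For Sstr5 all 5 hypothyroid Thrb-KO libraries lay below the wild type replicates 1 and 2, and 4 of the 5 lay within the range of all 4 wild type libraries.

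Of the 36 tested markers 6 were called between the hypothyroid genotypes at a limma adjusted p under 0.05, all lower in Thrb-KO, beside 6.85% of all genes, with a median of -0.06 over the 36 against 0.03 over all genes. They were Trhr of thyrotrophs (-1.35), Pcsk2 of melanotrophs (-0.68), Aldh1a2 of folliculostellate cells (-0.40), Csf1r (-0.77) and Cd68 (-0.46) of macrophages and Col1a2 of stroma (-0.64). Immune markers (Ptprc, Cd68 and Csf1r, mostly Csf1r) summed to 50.6, 51.2, 55.2 and 54.9 CPM in hypothyroid wild type and to 35.0, 32.4, 31.9, 29.3 and 29.6 CPM in hypothyroid Thrb-KO. Melanotroph markers summed to 379, 380.2, 463 and 534 CPM and to 275, 246, 247, 287 and 383 CPM in these groups. The lower melanotroph sum rests on Pcsk2, since Pax7 gave -0.003 and was not called. The immune sums did not overlap between the genotypes, while the highest Thrb-KO value of the melanotroph sum lay within the wild type range. Stromal markers (Col1a1, Col1a2 and Dcn, with Col1a2 highest in wild type and Dcn in Thrb-KO) summed to 327, 299, 283 and 267 CPM in wild type and to 235, 235, 259, 255 and 256.3 CPM in Thrb-KO, without overlap. Stem and folliculostellate markers (Sox2, S100b and Aldh1a2, mostly Aldh1a2) summed to 65.4, 59.3, 66.3 and 61.5 CPM in wild type and to 55.9, 48.8, 55.1, 54.1 and 59.6 CPM in Thrb-KO, where replicate 5 reached the wild type range. These lower sums rest on Aldh1a2 and Col1a2, since Sox2 (0.14), S100b (0.04) and Dcn (0.23) went the other way and Col1a1 gave -0.09, none of these 4 called. The part of these cells in the Sstr3 difference was not tested.

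After T3 the genotypes differed in Sstr2: hyperthyroid Thrb-KO pituitaries held less of it than hyperthyroid wild type ones. The mean was 2.45 ± 1.31 CPM (SD, n = 5) against 5.13 ± 1.80 CPM (n = 4), a ratio of 0.477. In Thrb-KO 4 of 5 libraries, at 1.53 to 1.99 CPM, lay below all wild type libraries, at 3.45 to 7.29 CPM, and replicate 5 at 4.75 CPM lay among them. That replicate also had the highest Gh of its group, 114941 CPM against 82874 to 94943 CPM. Thus 1 of 5 receptors was called, beside 12.1% of the 13145 genes and 12.9% of the 14472 genes. For Sstr2 the log2 difference was -0.85 (SE 0.23, 95% interval -1.34 to -0.37, limma adjusted p = 0.0180), with -0.91 under TMM scaling, -1.17 in edgeR and -1.15 in DESeq2. It was -1.34 within replicates 1 and 2 (limma adjusted p = 7.81e-06) and -0.41, not called, within replicates 3 to 5 (limma adjusted p = 0.338), the ends of the range over the alternatives. The call was lost without hyperthyroid wild type replicate 1 (-0.69, limma adjusted p = 0.0682), without replicate 2 of that group (-0.78, limma adjusted p = 0.0522) and without hyperthyroid Thrb-KO replicate 3 (-0.76, limma adjusted p = 0.0524), and without hyperthyroid Thrb-KO replicate 5 the difference was -1.05.

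Sstr5 lay close to the threshold in the same comparison. Its mean was 6.49 ± 1.26 CPM in hyperthyroid Thrb-KO (SD, n = 5) against 11.1 ± 4.24 CPM in hyperthyroid wild type (n = 4), and 3 of 5 Thrb-KO libraries lay below all wild type ones. For Sstr5 the log2 difference was -0.64 (SE 0.21, 95% interval -1.07 to -0.20, limma adjusted p = 0.0543), not called. It was called with TMM scaling (-0.71, limma adjusted p = 0.0291), in edgeR (-0.86, adjusted p = 0.0172), in DESeq2 (-0.86, adjusted p = 0.00390) and with the replicate numbers as blocks (-0.70, limma adjusted p = 0.00395). It was also called within replicates 1 and 2 (-0.97, limma adjusted p = 0.000369) but not within replicates 3 to 5 (-0.30, limma adjusted p = 0.300), the ends of the range over the alternatives. Leaving out hyperthyroid wild type replicate 4 gave -0.84 (limma adjusted p = 0.00891) and leaving out hyperthyroid Thrb-KO replicate 5 gave -0.73 (limma adjusted p = 0.0372). It was called as well without hypothyroid wild type replicate 1 (limma adjusted p = 0.0470) or replicate 4 (limma adjusted p = 0.0408), libraries outside this comparison that enter it through the shared estimate of spread.

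Sstr3, which differed before T3, was alike in the genotypes after it, at 22.8 ± 1.77 CPM in hyperthyroid Thrb-KO (SD, n = 5) and 23.9 ± 3.03 CPM in hyperthyroid wild type (n = 4). Its log2 difference was -0.06 (SE 0.10, 95% interval -0.27 to 0.14, limma adjusted p = 0.741), with -0.23 within replicates 1 and 2 and 0.09 within replicates 3 to 5. Sstr1 gave 0.20 (SE 0.24) and Sstr4 0.08 (SE 0.18). Of the 36 tested markers 3 were higher in hyperthyroid Thrb-KO, Pou1f1 (0.63), Trhr (0.69) and Nr5a1 (0.60), and 2 were lower, Aldh1a2 (-0.59) and Cd68 (-0.38), all at a limma adjusted p under 0.05 and beside 12.1% of all genes, with a median of -0.11 against 0.07 over all genes. Each was the only called marker of its list. Medians over the tested somatotroph, thyrotroph and gonadotroph markers were 0.19, 0.04 and -0.06. Somatotroph markers summed to 95219, 89669.7, 83203, 88682 and 115295 CPM in hyperthyroid Thrb-KO, overlapping the 87608 to 159299 CPM of hyperthyroid wild type. Stem and folliculostellate markers summed to 65.1, 68.9, 75.7 and 68.0 CPM in hyperthyroid wild type and to 46.3, 44.0, 56.1, 56.0 and 55.2 CPM in hyperthyroid Thrb-KO, the only 1 of the 12 marker sums without overlap between these groups. The part of these cells in the Sstr2 difference was not tested.

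Within single libraries 2 ratios were read, both to Sstr3, which by itself was lower with T3 without overlap in both genotypes. In wild type the ratio of Sstr5 to Sstr3 CPM was 0.153 to 0.249 in the hypothyroid and 0.324 to 0.610 in the hyperthyroid libraries, without overlap. In Thrb-KO it was 0.156 to 0.219 and then 0.224 to 0.382, again without overlap. The ratio of Sstr2 to Sstr3 CPM was 0.0405 to 0.0550 and then 0.141 to 0.265 in wild type, and 0.0300 to 0.0691 and then 0.0615 to 0.212 in Thrb-KO, where the groups overlapped. These ratios show unequal change of the 2 genes in a library and not which of them changed. Ratios of other receptor pairs were not read, and no share of gene pairs without overlap was taken for comparison.

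Across the 18 libraries, with each set centred on its own mean, Sstr2 and Sstr5 ran together most closely among the receptors, with a Pearson r of 0.86, and Sstr1 and Sstr3 ran most oppositely, with an r of -0.60. These correlations are descriptions over libraries that share the 4 groups. The tested genes most like Sstr2 over the same 18 libraries were Scn4a, a sodium channel gene, with an r of 0.93, Shmt2, a mitochondrial serine hydroxymethyltransferase gene, with 0.89, and Epb4.1l4a with 0.89. In wild type their log2 differences with T3 were 0.72 for Scn4a, 0.36 for Shmt2 and 0.23 for Epb4.1l4a. Those most like Sstr3 were Jph2, a junctophilin gene, with an r of 0.93, Myoc, which encodes myocilin, with 0.92, and Ablim3, an actin-binding LIM protein gene, with 0.91. Their log2 differences with T3 in wild type were -1.18 for Jph2, -1.35 for Myoc and -0.55 for Ablim3. The 6 genes were picked for their correlation over these same libraries, so that sharing the direction of Sstr2 or Sstr3 follows largely from the choice.

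Of 44 genes listed for the somatostatin pathway 39 were tested in all libraries, and in wild type 3 rose and 6 fell with T3. These 9 of 39 stand beside 19.3% called among all 13145 genes. The median log2 difference was -0.12, beside -0.04 over all genes. The ligand genes Sst and Cort lay below the limit, with at most 0.181 and 0.131 CPM in any library, near the floor of 3 reads. Among 8 G protein subunits the alpha subunit genes Gnai1 (-0.58, limma adjusted p = 0.00213) and Gnai2 (-0.29, limma adjusted p = 0.0466) fell and Gnaz rose (0.73, limma adjusted p = 0.00269). No other subunit was called, with Gnai3 at -0.04 and Gnao1 at -0.07. Among 8 tested adenylyl cyclases, the enzymes that make cyclic AMP, Adcy7 rose by 1.90, from 11.4 to 45.0 CPM (limma adjusted p = 2.55e-06), and Adcy2 fell by 0.42 (limma adjusted p = 0.0195). None of the 3 tested inwardly rectifying channel genes, Kcnj3, Kcnj6 and Kcnj9, was called. Of 3 phosphatases Ptpn11 fell (-0.27, limma adjusted p = 0.0378), and of 6 receptor kinases and arrestins Adrbk2 fell (-0.48, limma adjusted p = 0.0165). No gene of the 6 receptor scaffolds was called in this comparison. Of 3 RGS genes, whose proteins speed the shut-off of G proteins, Rgs4 fell by 2.00, from 137 to 33.0 CPM (limma adjusted p = 4.17e-08), and Rgs16 rose by 0.38 (limma adjusted p = 0.0232).

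In Thrb-KO 2 of the 39 pathway genes were called with T3, beside 1.79% of all genes, both also called in wild type: Adcy7 rose by 1.77, from 15.8 to 54.8 CPM (limma adjusted p = 1.18e-05), and Rgs4 fell by 1.42, from 112 to 41.6 CPM (limma adjusted p = 5.84e-06). The difference between the responses was called for Rgs16 (-0.61, limma adjusted p = 0.0221) and no other of the 39. Between the hypothyroid genotypes Gnaz (0.53, limma adjusted p = 0.0438) and Shank1, a receptor scaffold gene (0.36, limma adjusted p = 0.0194), were higher in Thrb-KO. Between the hyperthyroid genotypes Ptpn11 was higher (0.35, limma adjusted p = 0.00963) and the phosphatase gene Ptprj (-0.66, limma adjusted p = 0.0302) and Rgs16 (-0.45, limma adjusted p = 0.00849) were lower in Thrb-KO. The counts of 1, 2 and 3 of 39 in these last 3 comparisons stand beside 5.46%, 6.85% and 12.1% of all genes. Medians over the 39 genes for Thrb-KO with T3 and these 3 comparisons were -0.02, 0.06, 0.02 and 0.13, beside -0.01, 0.04, 0.03 and 0.07 over all genes. Of the receptors that oppose somatostatin on somatotrophs, Ghrhr was not called in any comparison. Ghsr, the ghrelin receptor gene, is outside the 39 and was tested among the 14472 genes. It measured 0.856, 2.65, 0.551 and 0.653 CPM in hypothyroid and 10.6, 15.6, 6.45 and 8.82 CPM in hyperthyroid wild type, and in Thrb-KO 1.16, 0.589, 0.434, 0.427 and 0.256 CPM and then 1.03, 1.03, 1.43, 0.914 and 1.03 CPM. All 4 hyperthyroid wild type libraries lay above every other library. Ghsr rose with T3 in wild type by 2.42 (limma adjusted p = 7.9e-07), its responses differed between the genotypes by -1.99 (limma adjusted p = 0.000795), and it was lower in hyperthyroid Thrb-KO than in hyperthyroid wild type by a log2 difference of -2.39 (limma adjusted p = 9.89e-07).

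At the receptor loci, TRβ peaks of the pituitary lay within 20 kb of 3 of the 5 genes, Sstr1, Sstr3 and Sstr5, beside 41.5% of 12582 tested genes with a position in the annotation. Within 100 kb there was a pituitary peak at 4 of 5 genes, with Sstr2 added, beside 70.9%. The cerebral cortex list had a peak within 20 kb of 0 of 5 genes, beside 35.1%, and within 100 kb of 2 of 5, Sstr2 and Sstr5, beside 63.1%. An ATAC peak that differed with T3 lay within 20 kb of 1 of 5 genes, Sstr3, beside 7.83%, and within 100 kb of the same gene alone, beside 18.4%. The lists come from merged libraries and give no value per replicate, so that these counts carry no test.

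Sstr5 (chr17:25626820-25634198, mm9, minus strand) had the peak with the most reads. It lay at chr17:25638151-25638600, 3.95 kb upstream in intergenic DNA, with 53 reads against 4 in the control, an 11.1-fold ratio after the authors' scaling and a false discovery rate of 4.44e-36. Among the 8051 peaks of the list its reads exceeded 93.2% and its ratio 60.1%, ranks that include the substitute ratio the list carries where the control had 0 reads. A second pituitary peak at chr17:25542301-25542550, with 15 reads against 1, lay 84.3 kb downstream in an intron of Cacna1h. The cortex list had none at these places and its nearest peak to Sstr5 lay 59.0 kb away.

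Sstr3 (chr15:78367445-78374775, minus strand) was the only receptor gene with overlapping pituitary TRβ and ATAC peaks within 100 kb. A pituitary TRβ peak at chr15:78378301-78378650, 3.53 kb upstream and intergenic, held 24 reads against 5, a ratio of 4.01 and a false discovery rate of 1.32e-08, its reads exceeding 67.8% and its ratio 4.78% of the list. The ATAC peak at chr15:78378322-78378475 lay inside it and had an adjusted p of 0.0431 in the authors' edgeR comparison. Both peaks were lost under stricter thresholds, a false discovery rate of 1e-12 for binding and an adjusted p of 0.001 for ATAC, which left a pituitary peak within 20 kb of 2 of 5 receptors, beside 25.2% of genes, and an ATAC peak at 0 of 5, beside 3.66%. In the whole lists 10.8% of pituitary TRβ peaks overlapped such an ATAC peak, and 49.0% of these ATAC peaks overlapped a pituitary TRβ peak. The ATAC list gives no direction, so whether accessibility was higher or lower with T3 at this place cannot be read from it.

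Sstr1 (chr12:59312759-59315431, plus strand) had pituitary peaks downstream, at chr12:59320151-59320350, 4.72 kb away with 12 reads against 0, and at chr12:59324901-59325250, 9.47 kb away with 13 against 1. In reads the nearer one exceeded 6.6% of the list, and with 0 control reads it has no defined ratio. The farther one exceeded 14.1% in reads and 55.2% in ratio (10.8). Beyond 100 kb, the ATAC peak nearest to Sstr1 lay 301 kb upstream, at chr12:59011118-59011390. It overlapped a pituitary TRβ peak and had an adjusted p of 1.09e-05 in the authors' edgeR comparison, past the stricter threshold. Sstr2 (chr11:113480656-113487319, plus strand) had its nearest pituitary peak at chr11:113450201-113450600, 30.1 kb upstream, with 17 reads against 2 and a false discovery rate of 2.98e-10. That peak and Sstr2 itself lie in an intron of Slc39a11, which runs on the opposite strand and shares 0 exon bases with Sstr2. For Sstr4 (chr2:148221113-148226239, plus strand) the nearest peak of any list was an ATAC peak 130.1 kb away, and the nearest pituitary TRβ peak lay 336 kb away.

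**Figure D3:**
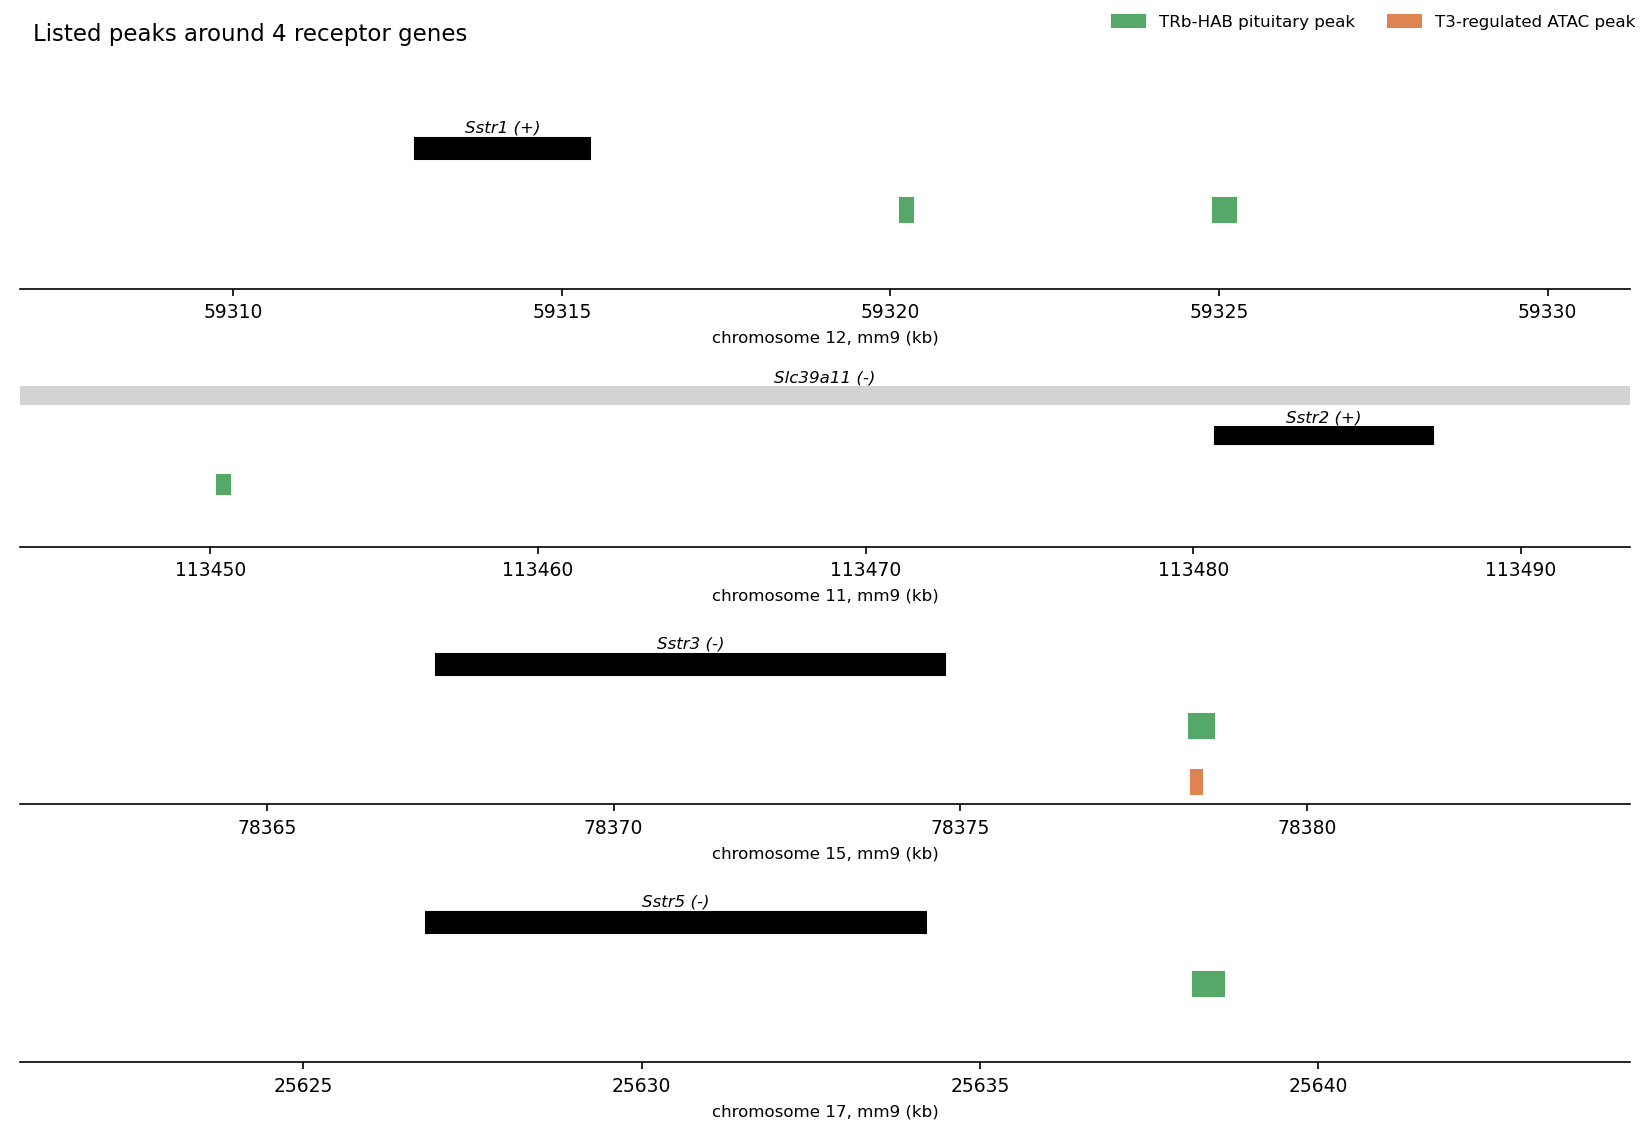
Maps of 4 receptor loci in mm9 coordinates (horizontal axis, kb), with the receptor gene in black, other genes in grey, TRβ-HAB peaks of the pituitary in green and T3-regulated ATAC peaks in orange, for peaks within 35 kb of the gene. Sstr3 and Sstr5 have a peak 3.53 and 3.95 kb upstream, the Sstr1 peaks lie 4.72 and 9.47 kb downstream and the Sstr2 peak lies 30.1 kb upstream inside Slc39a11.

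Thyroid hormone receptors bind copies of the 6 base site AGGTCA, classically as a direct repeat of AGGTCA with a spacer of 4 bases. With at most 2 mismatches of the 12 fixed bases and on both strands, such a repeat was in 20.9% of the 8051 pituitary peaks, in 9.30% of the 5164 cortex peaks and in 30.9% of the 1776 ATAC peaks. None of the 4 pituitary peaks within 20 kb of Sstr1, Sstr3 or Sstr5 held one, while the Sstr2 peak held one with 1 mismatch, at chr11:113450309-113450324 on the plus strand, a match that 3.94% of pituitary peaks have. The single site AGGTCA was in 34.7% of pituitary peaks, on either strand. The Sstr2 peak held 3, the Sstr3 peak 2, the Sstr5 peak 1 and the nearer Sstr1 peak 0. These matches describe letters in the sequence and not sites of contact. The sequences are shown to let the peaks be compared by eye, all from the plus strand of mm9, 5′ to 3′, with AGGTCA copies in capitals (TGACCT where the copy is on the minus strand) and in the Sstr2 peak the whole 16 base repeat. Only the Sstr1 peak is shown whole, and the windows of the others were chosen in different ways. For Sstr2 it is chr11:113450201-113450500, 300 bases around the direct repeat. For Sstr3 it is chr15:78378322-78378475, the part shared with the ATAC peak, which holds 1 of its 2 AGGTCA copies. For Sstr5 it is chr17:25638225-25638524, 300 bases at the centre of the peak. For Sstr1 it is chr12:59320151-59320350, where a run of 49 bases occurs 2 times, from 59320220 and from 59320273.
Sstr2 peak: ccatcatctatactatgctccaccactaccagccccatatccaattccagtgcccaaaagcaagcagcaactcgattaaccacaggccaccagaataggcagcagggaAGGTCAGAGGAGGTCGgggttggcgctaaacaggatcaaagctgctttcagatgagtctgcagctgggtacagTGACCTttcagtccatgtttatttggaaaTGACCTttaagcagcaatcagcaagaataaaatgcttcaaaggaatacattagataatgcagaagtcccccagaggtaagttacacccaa
Sstr3 peak: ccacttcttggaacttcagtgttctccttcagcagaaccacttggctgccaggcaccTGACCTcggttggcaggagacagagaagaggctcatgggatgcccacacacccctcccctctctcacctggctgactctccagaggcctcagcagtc
Sstr5 peak: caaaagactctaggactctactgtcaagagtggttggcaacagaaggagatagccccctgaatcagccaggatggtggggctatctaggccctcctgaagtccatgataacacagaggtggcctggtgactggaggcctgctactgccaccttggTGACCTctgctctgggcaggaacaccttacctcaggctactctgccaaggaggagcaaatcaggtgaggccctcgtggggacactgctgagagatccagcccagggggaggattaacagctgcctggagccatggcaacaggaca
Sstr1 peak: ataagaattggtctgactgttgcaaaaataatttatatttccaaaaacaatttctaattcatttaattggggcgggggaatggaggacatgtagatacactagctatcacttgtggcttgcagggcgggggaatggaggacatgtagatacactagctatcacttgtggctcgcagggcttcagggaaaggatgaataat

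Genes around the receptors were read for the same comparisons. Slc39a11, a zinc transporter gene that surrounds Sstr2, did not move with T3 in wild type (-0.04, limma adjusted p = 0.896), with means of 48.2 and 46.9 CPM, while Sstr2 rose there. It was lower in Thrb-KO than in wild type both in the hypothyroid (-0.64, limma adjusted p = 0.000914) and in the hyperthyroid state (-0.62, limma adjusted p = 0.000652), with means of 30.5 and 30.0 CPM. Sstr2 and Slc39a11 run on opposite strands, and the study does not say whether reads were counted by strand. C1qtnf6, 7.39 kb from Sstr3, was lower in hypothyroid Thrb-KO than in wild type (-0.44, limma adjusted p = 0.0253), as was Sstr3, and Rac2, 14.8 kb away on the side of the peak, was not called in any comparison. Thbd, which encodes thrombomodulin, lay 3.97 kb from Sstr4 and fell with T3 in wild type (-0.68, limma adjusted p = 0.00742) and in Thrb-KO (-0.73, limma adjusted p = 0.0120), while Sstr4 was not called. Cacna1h, a calcium channel gene 56.1 kb from Sstr5, was higher in hypothyroid Thrb-KO (0.67, limma adjusted p = 0.0113). Mipol1, 715 kb from Sstr1, rose with T3 in wild type (0.45, limma adjusted p = 0.00443), and the neighbours Clec14a, Sox9, Cog1, Xrn2 and Sox8 were not called in any comparison.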

How the data were processed

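RNA values were CPM made by the authors, who by their methods mapped single-end reads to mouse RefSeq transcripts with BBMap and divided by each library's total. The series record lists STAR among its tools without a role, so which aligner made these values is not settled. In the peak lists the authors counted reads of merged libraries in each SICER 1.1 peak (counts), and the deposited fold is the scaled ratio of tagged over control reads, except where the control had 0 reads and the list carries a substitute value. The deposited p-value and false discovery rate come from the authors' SICER calls, and the p-value of the ATAC list from their edgeR comparison. Of the ATAC list the methods name MACS2 and a figure legend names SICER as the peak caller.

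Differences were tested with limma 3.58.1 (R 4.3.3, trend across mean level) on log2(CPM + 1) in 1 model of 4 groups and 18 libraries, with Benjamini-Hochberg adjustment over 13145 genes, or over 14472 genes for Sstr2 and Sstr4. The model assumes equal spread in all groups and does not account for pools or cages. Whole reads were recovered from the CPM for edgeR 4.0.16 and DESeq2 1.42.0. The tests were run on simulated data first. Same-numbered libraries of different groups correlated in their residuals in 25 of 25 pairs, with r from 0.130 to 0.815, while 5 of 18 libraries correlated best with their own number, and a fit with the number as block was an alternative. Replicates of a group correlated with r of 0.915 to 0.997. Peaks were matched to gene bodies with Python 3.11.15 and pandas 2.3.3, sequences were read from mm9 with pysam 0.24.0, and figures were drawn with matplotlib 3.10.9.

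Alternatives were TMM scaling, edgeR, DESeq2, other pseudocounts and limits, blocks, library sets apart, each library left out, a 1.5-fold minimum and other peak thresholds and distances. Named genes are the receptors, Thrb, markers, called pathway genes, the 3 genes most correlated with a called receptor and the nearest tested gene on each side. The members and lists were chosen with earlier results of these data known. ChAP-seq of hypothyroid and hyperthyroid pituitaries and histone ChIP-seq were not analysed here.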

Additional observations from a re-analysis of the deposited data

Results flagged for a closer look

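In 2 of 20 combinations of receptor and group 1 library lay far from the others, by the gap to the nearest library over the whole range of the group, where chance gives about 1 in 20. Sstr2 measured 4.75 CPM in hyperthyroid Thrb-KO replicate 5, against 1.53 to 1.99 CPM in the other 4 libraries of that group. Sstr4 measured 2.09 CPM in hypothyroid Thrb-KO replicate 2, against 0.991 to 1.30 CPM in the other 4. The cause of either value was not tested.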

How the results depend on the processing

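Of 805 alternative values of the receptor differences 759 kept direction and side of the threshold, 13 lost the call, 19 gained it and 14 turned direction. Within replicates 1 and 2 the number of receptors called was 4 in the wild type T3 response, 1 in the Thrb-KO response, 1 in the difference of the responses, 3 between the hypothyroid and 2 between the hyperthyroid genotypes, beside 4156, 641, 1308, 1405 and 2247 of 13145 genes. Calls gained there were Sstr1 (0.34) and Sstr5 (0.47) in the wild type response, Sstr2 in the Thrb-KO response (0.57) and in the difference of the responses (-0.85), Sstr2 (-0.49) and Sstr5 (-0.69) between hypothyroid genotypes and Sstr5 (-0.97) between hyperthyroid genotypes. Within replicates 3 to 5 limma called 1 receptor in the wild type response, 0 between the hypothyroid and 0 between the hyperthyroid genotypes, beside 2320, 1089 and 2372 of 13145 genes, and Sstr2 in wild type (0.87), Sstr3 between hypothyroid genotypes (-0.16) and Sstr2 between hyperthyroid genotypes (-0.41) lost the call. A 1.5-fold minimum lost Sstr3 in wild type (-0.58, leaving 1 receptor) and between hypothyroid genotypes (-0.36, leaving 0). The hyperthyroid genotype count was 2 with TMM scaling, 2 in edgeR, 2 in DESeq2, 2 with replicate numbers as blocks and 2 with the set as block, through Sstr5 at -0.71, -0.86, -0.86, -0.70 and -0.61, beside 1667, 1724, 2164, 2541 and 3006 of 13145 genes. Replicate numbers as blocks also called Sstr5 in the wild type response (0.48) and changed no other receptor call, 2 of 25 in all. With hyperthyroid wild type replicate 3 and hyperthyroid Thrb-KO replicate 5 both left out, a choice made after seeing the data, the difference of the responses called 1 receptor, Sstr2 (-0.98), beside 981 of 13145 genes.

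Directions turned for Sstr4 with these 2 libraries left out, to 0.029 in the wild type response and -0.010 between hyperthyroid genotypes, for Sstr4 in the difference of the responses within replicates 1 and 2 (0.029) and for Sstr3 between hyperthyroid genotypes within replicates 3 to 5 (0.086). With 1 library left out at a time, Sstr4 ran from -0.22 to 0.053 and Sstr5 from 0.27 to 0.68 in the wild type response, and Sstr1 from -0.0043 to 0.25 in the Thrb-KO response. Sstr1 ran from 0.11 to 0.40 in the wild type response, and in the Thrb-KO response Sstr2 ran from 0.31 to 0.62, Sstr4 from -0.30 to -0.090 and Sstr5 from 0.12 to 0.27. In the difference of the responses Sstr1 ran from -0.29 to 0.0080, Sstr4 from -0.24 to 0.035 and Sstr5 from -0.47 to -0.058. Between hypothyroid genotypes Sstr3 ran from -0.41 to -0.31, Sstr1 from 0.19 to 0.47, Sstr2 from -0.32 to -0.12, Sstr4 from 0.066 to 0.32 and Sstr5 from -0.53 to -0.23, and the count from 0 to 1. Between hyperthyroid genotypes Sstr1 ran from 0.055 to 0.31, Sstr2 from -1.05 to -0.69, Sstr3 from -0.14 to 0.0061, Sstr4 from -0.053 to 0.20 and Sstr5 from -0.84 to -0.43, and the count from 0 to 2. A cortex peak lay within 100 kb of 2 receptors, stricter thresholds left 0 with an ATAC peak and 2 with a pituitary peak within 20 kb, the pituitary peak of Sstr3 being lost, and with at most 3 mismatches 2 of the 4 pituitary peaks within 20 kb of Sstr1, Sstr3 or Sstr5 held the direct repeat, beside 55% of the 8051 pituitary peaks. The cause of these changes was not tested.

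Over all genes the wild type response had 2536 calls, against 3991 with the set as block, 4156 within replicates 1 and 2 and 1244 with the 1.5-fold minimum. The Thrb-KO response had 235, against 481 in DESeq2, 483 with replicate numbers as blocks, 593 with the set as block, 641 within replicates 1 and 2, 383 without hyperthyroid wild type replicate 3 and 133 with the 1.5-fold minimum. The difference of the responses had 718, against 1137, 1418, 1584, 1308 and 1079 under the first 5 of these settings. Between hypothyroid genotypes there were 901, against 1559, 1883, 2216, 1405, 1616 and 397 under the same 6. Between hyperthyroid genotypes there were 1586, against 2541 with replicate numbers as blocks, 3006 with the set as block and 639 with the 1.5-fold minimum. Depth limits Sstr4, with 12 to 71 reads, and Sstr2, with 23 to 324 reads, more than the other receptors.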
